A study of Mus musculus with 20 samples.

Results

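The 10 genes described here form the signalling set of VEGF, apelin and TIE in blood vessel growth and upkeep: the ligands Vegfa, Vegfb, Vegfc and Apln, and the receptors Kdr, Flt1, Nrp1, Aplnr, Tie1 and Tek. They were picked by symbol out of the 25851 genes of the deposited table. Each symbol matched 1 row, and all 10 were among the 13723 genes with a mean of at least 0.5 FPKM that were tested. FPKM counts fragments scaled by transcript length and by a factor for each library, so levels can be set side by side between genes. In the deposited values that factor was not the total of reads but tracked median-ratio size factors, as described below.

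RNA came from hearts of 20 males, 14 to 16 weeks old, split into 4 groups of 5 mice, and poly-A selected, strand-specific libraries were made from about 15 to 20 mg of tissue each. The groups were sedentary wild-type mice, sedentary mice labelled as cardiomyocyte PGC-1α knockouts, wild-type mice given 6 weeks of running wheels, and labelled knockout mice given the same 6 weeks of wheels. PGC-1α is a transcriptional coactivator of mitochondrial genes encoded by Ppargc1a. The Cre driver, the deleted exons and the strain are not given in the sources used here, and each library is labelled as 1 mouse of its group.

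Background on the pathway is as follows. VEGF-A is secreted by muscle cells and acts on endothelial cells through the kinase Kdr, its main signalling receptor, while Flt1 binds VEGF-A and VEGF-B tightly and limits the VEGF-A that reaches Kdr; Nrp1 is a co-receptor without a kinase of its own. VEGF-B is made in quantity by cardiomyocytes, and VEGF-C acts mainly on lymphatic vessels. Apelin is made by sprouting endothelial cells and signals through the G protein-coupled receptor Aplnr, and Tek is the angiopoietin receptor with Tie1 as its partner. In muscle, PGC-1α with the nuclear receptor Esrra is known to induce Vegfa independently of hypoxia. The receptors are best known in endothelial cells, a cell type other than the one named in the knockout label. RNA of heart tissue does not show which cells the transcripts came from.

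Positions are those of GENCODE M21 on GRCm38, named mm10 in the submitters' processing notes. Of the ligand genes, Vegfa lies at chr17:46016993-46032369, Vegfb at chr19:6982473-6987651 and Apln at chrX:48025146-48034853, all on the minus strand, and Vegfc at chr8:54077606-54187096 on the plus strand. Kdr at chr5:75932827-75978458, Flt1 at chr5:147561604-147726011 and Tie1 at chr4:118471191-118490061 are on the minus strand. Tek at chr4:94739289-94874976, Nrp1 at chr8:128358604-128503363 and Aplnr at chr2:85136225-85139923 are on the plus strand. All 10 are protein-coding, and the 1 annotated gene that overlaps a member is the microRNA gene Mir1903, inside Nrp1 on the same strand.

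Promoter windows were taken from RefSeq on GRCm38.p6, 250 bases ending just before a start site; 10 windows of 9 members matched, with 2 start sites for Vegfa. The windows of 3 ligands and 3 receptors whose levels differed between groups below are printed 5′ to 3′ on the gene's own strand, to show what they share in sequence. Capitals mark GGGCGG (the GC box), CAGGAA (an ETS core, the family of Ets1 and Erg) and ACGTG (a hypoxia response core), each read on either strand.
Vegfa, chr17:46032378-46032627, minus strand: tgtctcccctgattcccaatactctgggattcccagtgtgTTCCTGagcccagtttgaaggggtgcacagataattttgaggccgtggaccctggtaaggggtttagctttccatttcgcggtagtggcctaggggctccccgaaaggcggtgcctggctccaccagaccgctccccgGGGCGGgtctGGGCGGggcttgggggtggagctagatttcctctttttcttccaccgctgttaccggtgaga
Vegfb, chr19:6987652-6987901, minus strand: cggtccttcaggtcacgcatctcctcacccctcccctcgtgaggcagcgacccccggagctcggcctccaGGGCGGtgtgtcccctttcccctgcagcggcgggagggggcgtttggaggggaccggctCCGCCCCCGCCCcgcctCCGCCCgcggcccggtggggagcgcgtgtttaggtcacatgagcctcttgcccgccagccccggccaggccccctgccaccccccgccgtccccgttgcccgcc
Apln, chrX:48034854-48035103, minus strand: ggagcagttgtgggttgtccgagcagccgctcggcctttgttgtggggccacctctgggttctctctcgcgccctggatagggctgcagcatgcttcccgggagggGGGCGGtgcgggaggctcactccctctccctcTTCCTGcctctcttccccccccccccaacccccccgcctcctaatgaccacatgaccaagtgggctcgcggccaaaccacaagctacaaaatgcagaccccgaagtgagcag
Kdr, chr5:75978456-75978705, minus strand: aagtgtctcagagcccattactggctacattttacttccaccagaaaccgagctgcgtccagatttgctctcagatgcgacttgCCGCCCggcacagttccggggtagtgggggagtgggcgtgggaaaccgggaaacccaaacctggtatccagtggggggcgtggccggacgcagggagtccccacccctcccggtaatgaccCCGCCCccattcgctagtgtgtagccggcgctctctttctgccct
Flt1, chr5:147726012-147726261, minus strand: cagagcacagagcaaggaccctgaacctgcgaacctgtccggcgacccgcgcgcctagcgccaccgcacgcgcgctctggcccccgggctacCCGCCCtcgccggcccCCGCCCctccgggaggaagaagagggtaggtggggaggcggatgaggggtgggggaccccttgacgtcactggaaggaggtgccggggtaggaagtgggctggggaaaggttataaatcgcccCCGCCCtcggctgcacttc
Tek, chr4:94739039-94739288, plus strand: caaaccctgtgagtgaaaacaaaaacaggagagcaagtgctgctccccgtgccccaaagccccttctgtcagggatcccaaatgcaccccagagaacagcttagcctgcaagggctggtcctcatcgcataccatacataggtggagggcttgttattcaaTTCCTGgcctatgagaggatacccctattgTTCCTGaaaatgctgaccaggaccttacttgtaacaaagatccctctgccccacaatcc
The GC box stood in 8 of the 10 member windows, all but those of Tek and Tie1, against 32.7% of 32851 RefSeq windows of that length. The 8 include both windows of Vegfa. The Vegfb window had 4 matches with a GC content of 76.4%. GC content ran from 51.2% to 76.4% in the member windows, against a median of 52.4% for all windows, and was not matched in this comparison. The ETS core was in 4 of the 10 windows, those of Tek, Tie1, Vegfa and Apln, against 25.7% of all windows. ACGTG was in the window of the second Vegfa start site alone, which is not printed, and in 16.6% of all windows. TNAAGGTCA, the element bound by Esrra, had no match in the 10 windows and one in 1.14% of all windows, and CACGTG, the E-box of the clock factors, which contains ACGTG, had none against 6.02%. A match describes letters in these windows and is not a binding site.

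Across the 20 hearts Vegfb had the highest level, with a mean of 188 ± 40.5 FPKM (SD, n = 20), followed by Vegfa at 92.1 ± 23.2 FPKM. The receptors came lower: Tie1 at 30.0 ± 6.28, Kdr at 18.0 ± 7.22, Tek at 10.8 ± 2.51, Flt1 at 10.7 ± 1.71, Aplnr at 10.5 ± 6.38 and Nrp1 at 8.24 ± 3.21 FPKM. Apln at 4.87 ± 1.97 FPKM and Vegfc at 2.94 ± 0.655 FPKM were lowest. Vegfa was above Tie1 in every library, since its lowest value was 54.6 FPKM and the highest of Tie1 was 42.2 FPKM, while Vegfb, with a lowest value of 121 FPKM, reached below the highest Vegfa value of 132 FPKM. The ranges of Tek, Flt1, Aplnr and Nrp1 overlapped, from 7.30 to 15.9, 7.02 to 13.5, 4.22 to 27.2 and 4.06 to 15.2 FPKM, and no order among those 4 is read from their means. Whole reads recovered from the FPKM values give the depth behind these levels, from a median of 129 reads a library for Vegfc, 303 for Apln and 637 for Aplnr to 7980 for Vegfa.

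**Figure D1:**
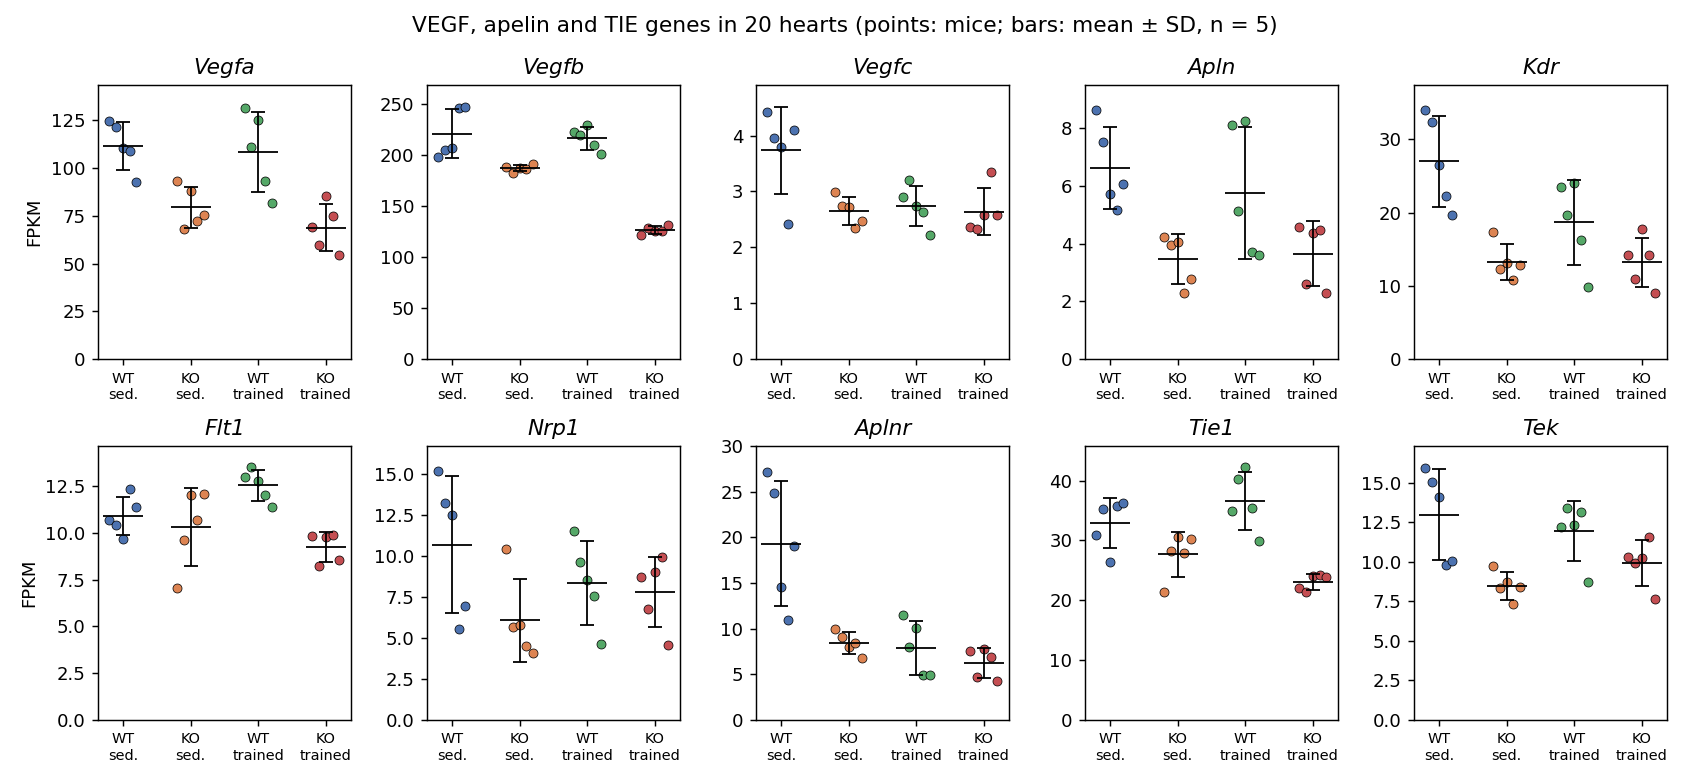
FPKM (y axis) of each of the 10 genes in the 4 groups (x axis), 1 point per mouse, with the mean and SD of 5 mice as bars. Vegfb sits between 121 and 131 FPKM in the trained labelled knockout hearts, below every library of the other 3 groups, and Kdr, Aplnr and Apln are lower in sedentary labelled knockout than in sedentary wild-type hearts without overlap.

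Some properties of the libraries touch every comparison. The depth was 14162272 to 30431339 recovered reads a library. Ppargc1a, the targeted gene, ranged from 9.39 to 15.4 FPKM in wild-type hearts and from 18.2 to 27.9 FPKM in labelled knockout hearts of sedentary mice, and from 10.4 to 21.9 and 18.7 to 26.9 FPKM in the trained ones. It was thus higher, not lower, in the labelled knockout hearts (limma log2 difference 0.88 ± 0.19 SE, adjusted p = 0.00471 sedentary, and 0.55 ± 0.19 SE, adjusted p = 0.0387 trained); a level summed over all exons does not show whether exons are missing, so it does not check the label. The 10 cardiomyocyte markers summed to between 16602 and 28357 FPKM, and no listed marker of endothelium or cardiomyocytes was at 0 throughout a group. The clock gene Arntl exceeded 2 FPKM in 5 libraries, all sedentary: replicates 1 to 4 of the wild-type and replicate 1 of the labelled knockout mice. Myl7, an atrial myosin light chain, exceeded 1000 FPKM in wild-type replicates 4 and 5 and labelled knockout replicates 2 and 5 of the trained mice, against at most 97.1 FPKM in any sedentary library, so the tissue pieces held unequal amounts of atrial RNA. Results are given by these sets where they bear on them. With TPM in place of the deposited scaling the median log2 difference over all genes was 0.06 to 0.26 in the 5 comparisons, and calls among all genes moved from 1713 higher and 2112 lower to 5453 higher and 813 lower between the trained genotypes, from 1656 and 2236 to 4337 and 640 with training in labelled knockout hearts, from 955 and 867 to 1094 and 402 between the sedentary genotypes, from 403 and 347 to 193 and 56 with training in wild-type hearts, and from 319 and 686 to 230 and 31 in the interaction.

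In sedentary hearts the labelled knockout had less RNA of most genes of the set. Of the 10 members 7 passed as lower, with Kdr and Aplnr near a log2 difference of -1 and the ligands Apln, Vegfa, Vegfc and Vegfb below them in size; Tek passed as well, and Flt1, Tie1 and Nrp1 did not. Among all 13723 genes 6.32% passed as lower and 13.3% in either direction. The median log2 difference of the 10 members was -0.53, beside -0.01 for all genes tested. The comparisons here and below share groups with each other. In bulk tissue, fewer endothelial cells and less RNA per cell cannot be told apart.

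Kdr, the main VEGF-A receptor, was at 34.0, 32.3, 26.5, 22.3 and 19.6 FPKM in wild-type replicates 1 to 5 and at 17.4, 12.3, 13.1, 10.8 and 12.8 FPKM in labelled knockout replicates 1 to 5. Every labelled knockout heart was below every wild-type heart. It fell by 0.99 ± 0.22 (SE) on the log2 scale, from a mean of 27.0 ± 6.22 to 13.2 ± 2.46 FPKM (SD, n = 5; limma adjusted p = 0.00583). Aplnr, the apelin receptor, was at 27.2, 24.9, 14.5, 10.96 and 19.0 FPKM in wild-type hearts and 9.98, 9.04, 7.98, 8.45 and 6.77 FPKM in those labelled knockout. The groups did not overlap, and came closest at wild-type replicate 4 and labelled knockout replicate 1. Aplnr fell by 1.08 ± 0.25 on the log2 scale (limma adjusted p = 0.00789). Tek, the angiopoietin receptor, was at 15.9, 15.1, 14.1, 9.80 and 10.03 FPKM against 9.76, 8.32, 8.71, 7.30 and 8.37 FPKM. Those groups met almost at 1 value, 9.80 against 9.76 FPKM, without crossing, and Tek fell by 0.56 ± 0.14 (limma adjusted p = 0.0133).

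Among the ligands, Apln was at 8.64, 7.50, 5.71, 5.18 and 6.08 FPKM in wild-type hearts and 4.22, 3.93, 4.04, 2.28 and 2.78 FPKM in labelled knockout hearts, again without overlap. It fell by 0.86 ± 0.24 on the log2 scale (limma adjusted p = 0.0219). Vegfa was at 125, 121, 111, 109 and 92.7 FPKM against 93.3, 68.3, 87.8, 72.5 and 75.5 FPKM. One labelled knockout heart, replicate 1, stood above the lowest wild-type heart, and Vegfa fell by 0.49 ± 0.14 (limma adjusted p = 0.0243). Vegfb was at 198, 205, 207, 246 and 247 FPKM against 188, 183, 187, 186 and 191 FPKM. The labelled knockout hearts lay close together (SD 3.11 FPKM against 23.8 FPKM), all below wild-type, and Vegfb fell by 0.23 ± 0.06 (limma adjusted p = 0.0225). Vegfc ranged from 2.41 to 4.43 FPKM in wild-type hearts and from 2.34 to 2.99 FPKM in labelled knockout hearts, overlapping through wild-type replicate 4, and fell by 0.41 ± 0.12 (limma adjusted p = 0.0362). In all, 5 of 10 members were lower without overlap between the groups, Kdr, Aplnr, Apln, Tek and Vegfb, against 5.29% of all genes tested.

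The other 3 receptors did not pass. Flt1, the decoy-like VEGF receptor, was at 10.9 ± 1.02 FPKM in wild-type hearts and 10.3 ± 2.10 FPKM in labelled knockout hearts, a log2 difference of -0.10 with a 95% interval from -0.33 to 0.14. Tie1 was at 32.9 ± 4.21 and 27.6 ± 3.71 FPKM, a difference of -0.25 (95% interval -0.48 to -0.02, limma adjusted p = 0.130). Nrp1 was at 15.2, 13.2, 12.5, 5.57 and 6.98 FPKM against 10.4, 5.64, 5.79, 4.50 and 4.06 FPKM, a difference of -0.75 ± 0.29 (limma adjusted p = 0.0955). In wild-type hearts Nrp1 was split, with replicates 1 to 3 high and replicates 4 and 5 low, and labelled knockout replicate 1 stood apart from its group. Without wild-type replicate 4 or without labelled knockout replicate 1 its adjusted p was 0.0318 and 0.0268.

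Of the other pathway genes, 1 of 35 tested rose and 3 fell, where 6.96% of all genes passed as higher. Itga5, a subunit of the fibronectin receptor, rose by 0.38 ± 0.12 on the log2 scale (limma adjusted p = 0.0419). Esrra, the nuclear receptor partner of PGC-1α, fell by 0.47 ± 0.05 (limma adjusted p = 9.2e-06), the endothelial transcription factor Ets1 by 0.65 ± 0.16 (adjusted p = 0.0107) and the semaphorin receptor Plxnd1 by 0.44 ± 0.13 (adjusted p = 0.0299). Of 13 endothelial markers outside the set 1 fell, Egfl7, a secreted endothelial factor, by 0.40 ± 0.11 (limma adjusted p = 0.0243). The summed endothelial level ranged from 326 to 417 FPKM in wild-type hearts and 263 to 402 FPKM in labelled knockout hearts. A fit with the mean of these markers as a covariate is given below, and it does not measure the part of endothelial cell number in the member differences. The smooth muscle actin gene Acta2 rose by 2.32 ± 0.24 (adjusted p = 9.2e-06), from 82.6 ± 42.0 to 378 ± 20.3 FPKM, but of the other smooth muscle markers Myh11 at 5.94 against 5.53 FPKM and Cnn1 at 0.765 against 1.12 FPKM did not pass, and Tagln, at 0.271 against 0.196 FPKM, was too low to be tested. The list sum of 48.9 to 157 against 354 to 408 FPKM is nearly all Acta2. Further, 3 of 6 macrophage markers rose, Csf1r, Cd68 and C1qa, with their list at 51.0 to 81.9 against 89.8 to 106 FPKM. Of the cardiomyocyte markers 2 of 10 fell, Tnni3 by 0.60 ± 0.12 and Ryr2 by 0.60 ± 0.18, and the pericyte marker Rgs5 fell by 0.48 ± 0.15. The 5 atrial markers summed to 34.3 to 238 against 265 to 900 FPKM, with 0 of 5 passing. The part of these cell types in the member differences was not tested.

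These sedentary calls moved with Arntl, which was above 2 FPKM in 4 of 5 wild-type hearts and 1 of 5 labelled knockout hearts. With log2 Arntl in the model 1 of the 7 calls held, Vegfb at -0.28 (limma adjusted p = 0.0428), while the difference was -0.55 for Kdr and -0.85 for Aplnr. Calls over all genes dropped as well in that fit, to 2.35% lower and 4.33% in either direction. Without the 5 libraries above 2 FPKM, which leaves 1 wild-type heart, none of the 10 was called by limma, and 0.138% of all genes were, 19 of 13723. The genotypes were also compared within the sets. Labelled knockout replicate 1 was below all 4 wild-type hearts that share its high Arntl in 8 of 10 members, all but Vegfc and Nrp1, with Kdr at 17.4 against 22.3 to 34.0 FPKM; 24.0% of all genes were lower in that way. Among the hearts with low Arntl all 4 labelled knockout hearts were below wild-type replicate 5 in 9 of 10 members, all but Flt1, with Kdr at 10.8 to 13.1 against 19.6 FPKM and Aplnr at 6.77 to 9.04 against 19.0 FPKM, where 27.5% of all genes were. Each set has 1 heart on one side, so the library set and the genotype could be compared but not tested. Leaving out 1 mouse kept between 3 and 8 members as lower, where 4.02% to 10.5% of all genes passed as lower: 4 without wild-type replicate 1 or 2 or labelled knockout replicate 2 or 5, and 3 without labelled knockout replicate 4. Kdr, Aplnr and Tek held in all 10 such fits, Vegfb in all but those without labelled knockout replicate 2 or 4, Apln in all but those without wild-type replicate 1 or 2 or labelled knockout replicate 4 or 5, and Vegfa was lost in 6 fits and Vegfc in 8. With TPM 3 of 10 passed, Kdr, Aplnr and Apln, beside 2.51% of all genes as lower.

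In trained hearts 4 of the 10 members fell in the labelled knockout, the ligands Vegfb and Vegfa and the receptors Tie1 and Flt1, while Kdr, Aplnr, Apln, Tek, Vegfc and Nrp1 did not pass. The background was high, with 15.4% of all genes passing as lower and 27.9% in either direction. The median of the 10 members was -0.44, beside -0.01 for all genes. Mean differences of all 10 were negative with the deposited scaling, and with TPM those of Vegfc, Tek and Nrp1 were positive. With TPM 2 of 10 passed, Vegfb and Tie1, beside 5.07% of all genes as lower, while Vegfa was at -0.36 (limma adjusted p = 0.0503) and Flt1 at -0.15; relative to the median gene these were -0.74, -0.62, -0.62 and -0.41 for Vegfb, Tie1, Vegfa and Flt1.

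Vegfb was at 222, 219, 229, 210 and 200 FPKM in wild-type replicates 1 to 5 and at 121, 129, 125, 126 and 131 FPKM in labelled knockout replicates 1 to 5. No labelled knockout heart came near the wild-type range. Vegfb fell by 0.77 ± 0.06 on the log2 scale, 0.586 of the wild-type level (limma adjusted p = 7.1e-08). Vegfa was at 132, 111, 125, 93.1 and 81.5 FPKM against 69.4, 59.8, 85.6, 74.7 and 54.6 FPKM. Labelled knockout replicate 3 was above wild-type replicate 5, which left a narrow overlap, and Vegfa fell by 0.65 ± 0.14 (limma adjusted p = 0.00145). Tie1 was at 34.9, 40.2, 42.2, 35.4 and 29.8 FPKM against 21.98, 21.3, 24.03, 24.3 and 23.9 FPKM. The highest labelled knockout heart was below the lowest wild-type heart, and Tie1 fell by 0.64 ± 0.11 (limma adjusted p = 0.00016). Flt1 was at 13.01, 13.5, 12.8, 12.0 and 11.4 FPKM against 9.81, 8.20, 9.79, 9.88 and 8.56 FPKM, also without overlap, and fell by 0.42 ± 0.11 (limma adjusted p = 0.00813). Thus 3 of 10, Vegfb, Tie1 and Flt1, were lower without overlap, against 11.1% of all genes tested.

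Kdr in trained hearts was at 23.4, 19.6, 24.1, 16.2 and 9.90 FPKM in wild-type hearts and 14.2, 10.96, 17.7, 14.2 and 9.01 FPKM in labelled knockout hearts, a difference of -0.45 ± 0.22 (limma adjusted p = 0.139). Wild-type replicate 5 was as low as the lowest labelled knockout hearts, and without it the difference was -0.66 (limma adjusted p = 0.0151). Apln was at 8.10, 5.13, 8.25, 3.70 and 3.60 FPKM against 4.56, 2.59, 4.36, 4.48 and 2.28 FPKM, a difference of -0.56 ± 0.24 (limma adjusted p = 0.0888). Wild-type replicates 4 and 5 were below 3 of the 5 labelled knockout hearts, and without either of them the adjusted p was 0.0465 and 0.0395. Aplnr, Tek, Nrp1 and Vegfc differed by -0.28 ± 0.25, -0.25 ± 0.14, -0.09 ± 0.29 and -0.05 ± 0.12, all with overlapping groups.

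**Figure D2:**
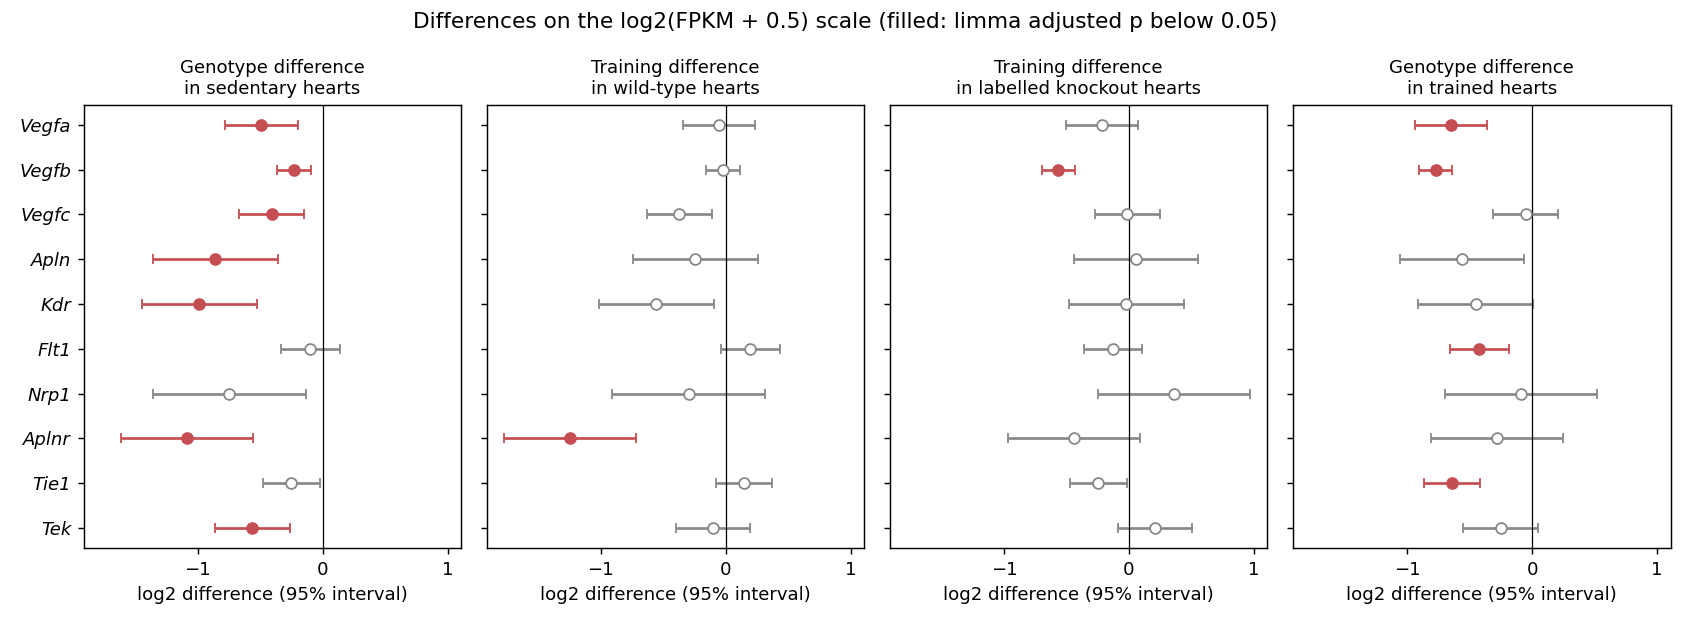
Log2 differences (x axis) of the 10 genes (y axis) with their 95% intervals in 4 comparisons, labelled knockout minus wild-type or trained minus sedentary; filled points passed limma at an adjusted p below 0.05. Kdr and Aplnr lie near -1 in sedentary hearts, and Vegfb is the member with the narrowest interval in all 4 panels.

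The high-Myl7 libraries, 2 of 5 in each trained group, had lower levels of many members, and the genotypes were compared within each set. The sets were not matched for the 5 atrial markers. With low Myl7 these summed to 13.5 to 70.6 FPKM in wild-type and 1477 to 2706 FPKM in labelled knockout hearts. With high Myl7 the sums were 5774 to 9147 against 4494 to 5521 FPKM. Sedentary labelled knockout hearts had sums of 265 to 900 FPKM with Myl7 at 0.674 to 14.8 FPKM. There the sum was carried by other genes of the list, so it does not by itself measure atrial tissue. The part of the atrial list in the member differences was not tested. Among the 3 against 3 libraries with low Myl7, 8 of 10 members were lower without overlap in labelled knockout hearts, all but Vegfc and Nrp1, against 21.9% of all genes; Kdr was at 14.2 to 17.7 against 19.6 to 24.1 FPKM and Vegfa at 69.4 to 85.6 against 111 to 132 FPKM. Among the 2 against 2 with high Myl7 6 of 10 were, Vegfa, Vegfb, Flt1, Apln, Aplnr and Tie1, against 27.8% of all genes, with Vegfa at 54.6 to 59.8 against 81.5 to 93.1 FPKM. Vegfa overlapped over all 10 libraries and in neither set. Without the high-Myl7 libraries limma called 3 of 10, with Flt1 at -0.40 (adjusted p = 0.0656) no longer called and 14.1% of all genes passing as lower.

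**Figure D3:**
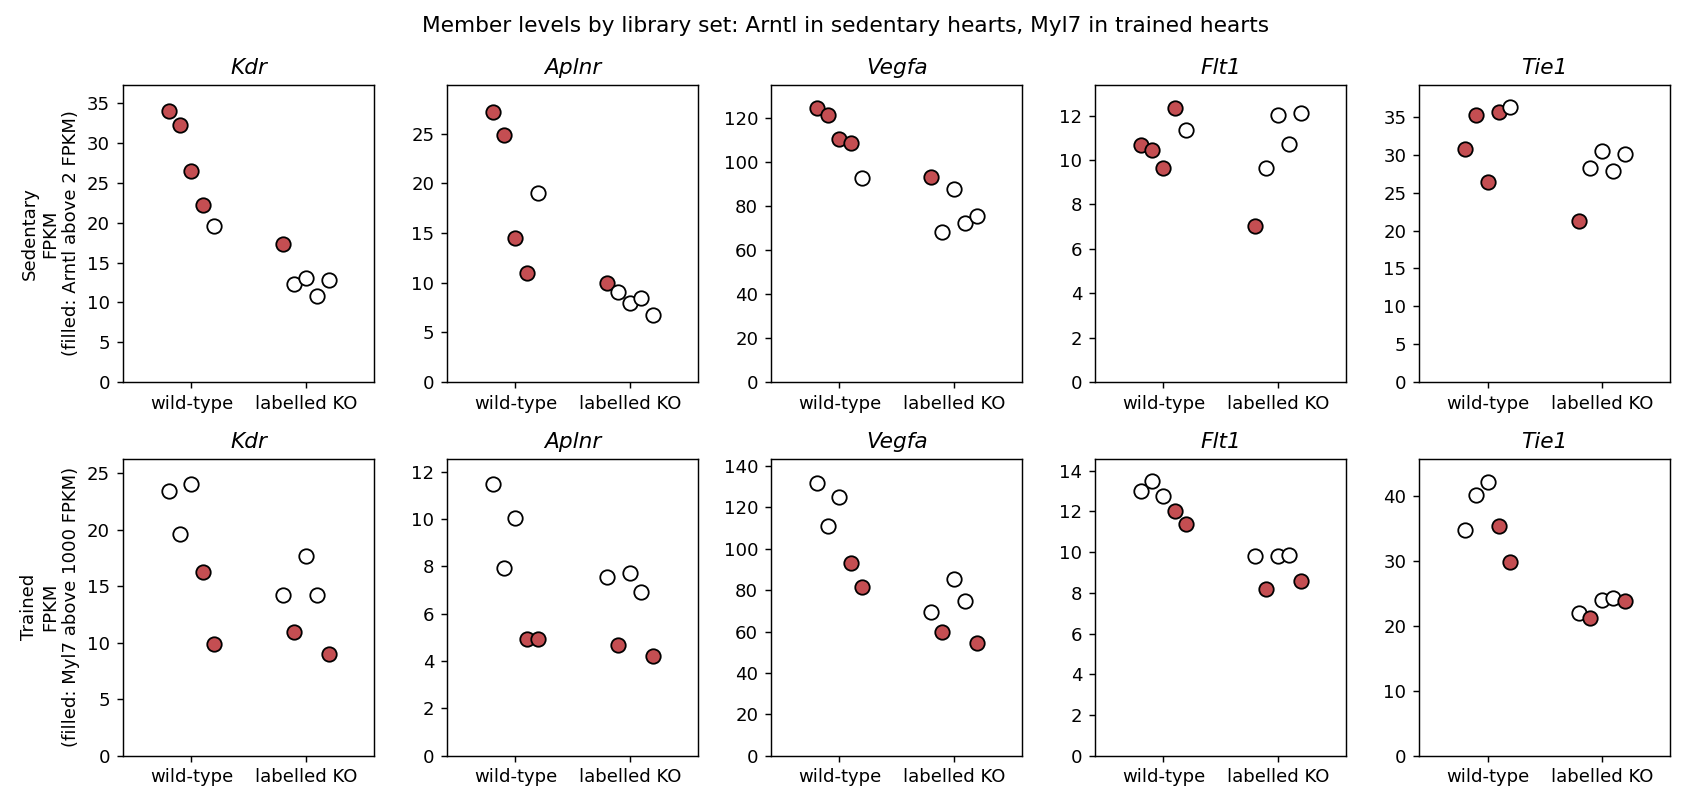
FPKM (y axis) of 5 members by genotype (x axis), 1 point per mouse; in the upper row filled points mark the sedentary libraries with Arntl above 2 FPKM, in the lower row the trained libraries with Myl7 above 1000 FPKM. In the trained hearts the filled points of Kdr, Aplnr and Vegfa are the 2 lowest of each genotype.

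Endothelial markers were lower in trained labelled knockout hearts as well, in 7 of 13, led by Egfl7 at -0.61 ± 0.11, Icam2, an adhesion molecule, at -0.62 ± 0.13, Pecam1, the junction protein CD31, at -0.37 ± 0.09 and Esam at -0.48 ± 0.13 (limma adjusted p = 0.000403, 0.00145, 0.00584 and 0.00998), and with TPM in 0 of 13. The summed level was 391 to 539 FPKM in wild-type hearts and 304 to 367 FPKM in labelled knockout hearts, which did not overlap. With the mean log2 level of the 13 markers as a covariate, Vegfb and Vegfa held, while Tie1 at -0.21 and Flt1 at -0.05 did not pass (limma adjusted p = 0.145 and 0.818); 10.7% of all genes passed as lower in that fit. Other cell types moved too: 6 of 7 fibroblast and 6 of 6 macrophage markers rose, led by Lum and Col1a2 and by Csf1r and Adgre1, and 5 of 10 cardiomyocyte markers fell, led by Tnni3 and Myl2. The fibroblast sum was 161 to 266 against 368 to 454 FPKM, the macrophage sum 61.4 to 101 against 121 to 211 FPKM, and the cardiomyocyte sum 19711 to 25488 against 16602 to 18911 FPKM. Their part in the member differences was not tested.

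The wider pathway list had 5 genes higher and 11 lower of 35 tested between the trained genotypes. With the deposited scaling 12.5% of all genes passed as higher and 15.4% as lower. With TPM 9 of 36 were higher and 1 lower, where 5453 of 16035 genes passed as higher and 813 as lower. With the endothelial marker mean as a covariate 4 of 35 were higher and 2 lower, where 1365 of 13723 genes passed as higher and 1465 as lower. Of the ligands, Pgf, placental growth factor, a ligand of Flt1, fell by 0.63 ± 0.21 on the log2 scale (limma adjusted p = 0.0344), and Vegfd, a ligand of Flt4, rose by 0.61 ± 0.16 (limma adjusted p = 0.00601). Of the receptor partners Itga5 rose and Plxnd1 fell. Of the upstream factors Esrra fell by 0.85 ± 0.05 (limma adjusted p = 2.7e-09), the hypoxia factor Epas1 by 0.51 ± 0.13 (adjusted p = 0.00535) and the oxygen sensor Egln1 by 0.34 ± 0.10, while Hif1a rose by 0.87 ± 0.19 (adjusted p = 0.00173). Of the endothelial response genes Nos3, the endothelial nitric oxide synthase, fell by 0.66 ± 0.13 (adjusted p = 0.000715), the Notch ligand Dll4 by 0.53 ± 0.14, the transcription factor Gata2 by 0.65 ± 0.18 and the receptor Notch1 by 0.34 ± 0.10.

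Training in wild-type hearts was followed by 1 called member, Aplnr. It was at 27.2, 24.9, 14.5, 10.96 and 19.0 FPKM in sedentary and 11.5, 7.93, 10.1, 4.91 and 4.95 FPKM in trained hearts. The highest trained heart was just above sedentary replicate 4, and 4 of 5 sedentary hearts were above all trained hearts. Aplnr fell by 1.25 ± 0.25 on the log2 scale (limma adjusted p = 0.0126), where 2.53% of all genes passed as lower, 5.47% in either direction, and 1.68% were lower without overlap, against 0 of 10 members. Without the Myl7-high libraries Aplnr differed by -0.88 (adjusted p = 0.121), and without the Arntl-high libraries by -1.30 with 1 sedentary heart left, 19.0 against at most 11.5 FPKM (adjusted p = 0.290). No member was called in those fits, with log2 Arntl or the endothelial mean as a covariate, or with the 2 groups fitted alone (adjusted p = 0.0877), by limma in each case. Few genes of any kind were called in these 5 fits, 0.284% without the Myl7-high and 0.0291% without the Arntl-high libraries, 0.532% and 0.313% with log2 Arntl and the endothelial mean, and 0.445% with the groups alone, so a count of 0 members says little about the set. The 10 fits without 1 mouse all kept Aplnr as lower.

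The other 9 members did not pass with training in wild-type hearts. Vegfa was at 112 ± 12.6 FPKM sedentary and 108 ± 21.1 FPKM trained, a log2 difference of -0.06 with a 95% interval of -0.35 to 0.23. Vegfb was at 221 ± 23.8 and 216 ± 11.3 FPKM, a difference of -0.02 with an interval of -0.16 to 0.11. Kdr differed by -0.55 ± 0.22 (limma adjusted p = 0.122) and Vegfc by -0.37 ± 0.12 (limma adjusted p = 0.0788; 0.0105 without sedentary replicate 4, the lowest sedentary heart at 2.41 FPKM). Flt1 and Tie1 had positive differences of 0.20 ± 0.11 and 0.15 ± 0.11.

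Other pathway genes differed in the opposite direction, where 2.94% of all genes passed as higher, with 5 of 35 higher and 0 lower by limma (4 lower at an unadjusted p under 0.05; 4 higher and 0 lower of 33 by voom), 4 of them Notch1, Hey1, Nos3 and S1pr1. Notch1 rose by 0.47 ± 0.10, its target Hey1 by 0.60 ± 0.15, Nos3 by 0.51 ± 0.13 and S1pr1, the endothelial receptor for sphingosine phosphate, by 0.67 ± 0.17 (limma adjusted p = 0.0200, 0.0310, 0.0334 and 0.0350); the fifth gene, named after its values were seen, was Acvrl1. None of the 35 passed by limma without the Arntl-high or without the Myl7-high libraries, fits that called 4 and 39 of all 13723 genes. The endothelial marker Pecam1 rose by 0.37 ± 0.09 (limma adjusted p = 0.0339), 1 of 13. With the endothelial marker mean as a covariate 0 of the 35 pathway genes passed by limma. Their median log2 difference was 0.0025 in that fit, against 0.16 without the covariate. The list holds 18 endothelial response genes, and the marker mean was 0.24 higher in the trained hearts. The covariate fit therefore does not measure the part of endothelial cell number in these differences. That fit called 32 of 13723 genes as higher and 11 as lower. Sedentary and trained wild-type hearts differed widely in the atrial list, at 34.3 to 238 against 13.5 to 9147 FPKM, and in the adipocyte list, at 0.00969 to 1.11 against 0.0646 to 129 FPKM. Markers of endocardium and vein, which are endothelial cells as well, had positive differences in 4 of 4, with 1 passing, Nfatc1 at 0.33 ± 0.08 (adjusted p = 0.0290), and 3 at an unadjusted p under 0.05; their sum was 9.76 to 20.4 against 14.3 to 75.0 FPKM, and 14.3 to 37.2 FPKM in the trained hearts with low Myl7. The mesothelial markers had an unadjusted p under 0.05 in 5 of 5, with Wt1 passing at 1.11 ± 0.13 (adjusted p = 0.000306) and a sum of 2.45 to 3.53 against 2.50 to 50.7 FPKM. The blood markers had one in 3 of 3 with none passing, at sums of 192 to 1230 against 888 to 1684 FPKM. The part of these lists in the rise of Notch1, Hey1 and Nos3 was not tested, and their part in the member differences was not tested beyond the values without the Myl7-high libraries.

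Training in labelled knockout hearts was followed by a fall of Vegfb. It was at 188, 183, 187, 186 and 191 FPKM in sedentary and 121, 129, 125, 126 and 131 FPKM in trained hearts. The 2 groups were each tight, with SDs of 3.11 and 3.76 FPKM, and lay far apart. Vegfb fell by 0.56 ± 0.06 on the log2 scale (limma adjusted p = 9.3e-06), 0.676 of the sedentary level. It was 1 of 10 members to pass and 1 of 10 without overlap, where 16.3% of all genes passed as lower, 28.4% in either direction and 13.7% were lower without overlap, so the count for the set was below the share for all genes. The call for Vegfb held in every alternative fit run. Without the Myl7-high libraries the fall was -0.59, with 121 to 126 FPKM in the 3 trained hearts left.

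None of the other members passed with training in labelled knockout hearts. Kdr was at 13.2 ± 2.46 and 13.2 ± 3.35 FPKM, a difference of -0.02 with a 95% interval of -0.48 to 0.44, and Apln and Vegfc differed by 0.06 ± 0.24 and -0.01 ± 0.12. Aplnr was at 9.98, 9.04, 7.98, 8.45 and 6.77 FPKM sedentary and 7.54, 4.66, 7.73, 6.89 and 4.22 FPKM trained, a difference of -0.44 ± 0.25 (limma adjusted p = 0.206). Tie1 and Flt1 differed by -0.24 ± 0.11 and -0.13 ± 0.11. For both, sedentary replicate 1 was the lowest sedentary heart, at 21.3 and 7.02 FPKM, and without it they were called, at -0.33 and -0.25 (limma adjusted p = 0.0178 and 0.0337), which made 3 members called. In that fit 28.9% of all genes were called. Tek differed by 0.21 ± 0.14 and Nrp1 by 0.36 ± 0.29, above 0 where the other receptors were below, and Tek passed with TPM at 0.48 (limma adjusted p = 0.0359), which is 0.25 above the median gene.

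Of the other pathway genes 8 of 35 rose and 2 fell with training in labelled knockout hearts, where 12.1% of all genes passed as higher. By limma with TPM 14 of 36 rose and 0 fell, where 4337 of 16035 genes passed as higher and 640 as lower. Vegfd rose by 0.99 ± 0.16 (limma adjusted p = 0.000118) and Angpt2, the angiopoietin that acts on Tek as a context-dependent antagonist, by 0.47 ± 0.13 (adjusted p = 0.00893) from a low level of 0.750 to 1.22 FPKM. Of the receptors and integrins Itgb3 rose by 0.78 ± 0.16, Itga5 by 0.46 ± 0.12 and Flt4, the VEGF-C and VEGF-D receptor, by 0.40 ± 0.10. Esrra fell by 0.35 ± 0.05 and Egln1 by 0.43 ± 0.10. Of 13 endothelial markers 0 passed by limma (0 at an unadjusted p under 0.05, and 0 of 12 by voom; 3 higher with TPM), with summed levels of 263 to 402 and 304 to 367 FPKM. By contrast 7 of 10 cardiomyocyte markers fell, led by Tnni3, Tnnt2, Pln and Myl2, with sums of 23401 to 26219 against 16602 to 18911 FPKM, 5 of 7 fibroblast and 6 of 6 macrophage markers rose, and the part of these in the fall of Vegfb, which cardiomyocytes make, was not tested.

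The difference between the 2 training differences was tested as an interaction. Vegfb was the 1 member of 10 that passed, at -0.54 ± 0.09 on the log2 scale (limma adjusted p = 0.00619), where 5.0% of all genes passed as negative, 2.32% as positive and 7.32% in either direction. With training Vegfb went from a mean of 221 to 216 FPKM in wild-type hearts and from 187 to 126 FPKM in labelled knockout hearts. With TPM the interaction was -0.35 (limma adjusted p = 0.0824; -0.52 relative to the median gene), and without the Arntl-high libraries, with 1 sedentary wild-type heart left, it was -0.37 (adjusted p = 0.352). For the 5 members Kdr, Aplnr, Apln, Tek and Nrp1 the interaction was positive, from 0.30 to 0.80 with SEs of 0.20 to 0.41, and none passed; for Aplnr it was 0.80 with a 95% interval of 0.06 to 1.55 (limma adjusted p = 0.165). The genotype difference was thus shown to differ between sedentary and trained hearts for Vegfb alone of the 10. Tie1 at -0.39 and Flt1 at -0.32 passed without sedentary labelled knockout replicate 1, at -0.48 and -0.45 (limma adjusted p = 0.0327 and 0.0237), and Vegfc at 0.36 passed without sedentary wild-type replicate 4, at 0.49 (limma adjusted p = 0.0342). Esrra was the 1 pathway gene of 35 that passed, at -0.37 ± 0.07 (limma adjusted p = 0.00716).

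Ratios within a library do not depend on the scaling between libraries, and were described without a test. Vegfa exceeded Kdr by a log2 ratio of 2.07 ± 0.19 in sedentary wild-type hearts, a geometric mean of 4.21 to 1, and by 2.59 ± 0.15 in sedentary labelled knockout hearts, 6.04 to 1. The ratio ranged from 1.87 to 2.29 and from 2.43 to 2.75, without overlap, so Kdr was lower relative to Vegfa in every labelled knockout heart. In trained wild-type hearts it was 2.59 ± 0.26, also above all sedentary wild-type hearts, and in trained labelled knockout hearts 2.40 ± 0.13. Apln to Aplnr was -1.49 ± 0.27 in sedentary and -0.46 ± 0.13 in trained wild-type hearts, and -1.32 ± 0.34 and -0.78 ± 0.11 in labelled knockout hearts. In both genotypes every trained heart had a higher ratio of ligand to receptor than every sedentary heart, and the 2 genotypes overlapped in each condition. Vegfb to Flt1 was 4.34 ± 0.09, 4.21 ± 0.32, 4.11 ± 0.06 and 3.78 ± 0.16 in sedentary wild-type, sedentary labelled knockout, trained wild-type and trained labelled knockout hearts. Trained wild-type hearts were all below sedentary wild-type hearts, and trained labelled knockout hearts all below trained wild-type hearts. Flt1 to Kdr was -1.28 ± 0.43 in sedentary wild-type and -0.37 ± 0.54 in sedentary labelled knockout hearts, with 1 overlapping heart, labelled knockout replicate 1 at -1.30. Tie1 to Tek, Angpt1 to Tek and Angpt1 to Angpt2 overlapped in all 4 comparisons.

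**Figure D4:**
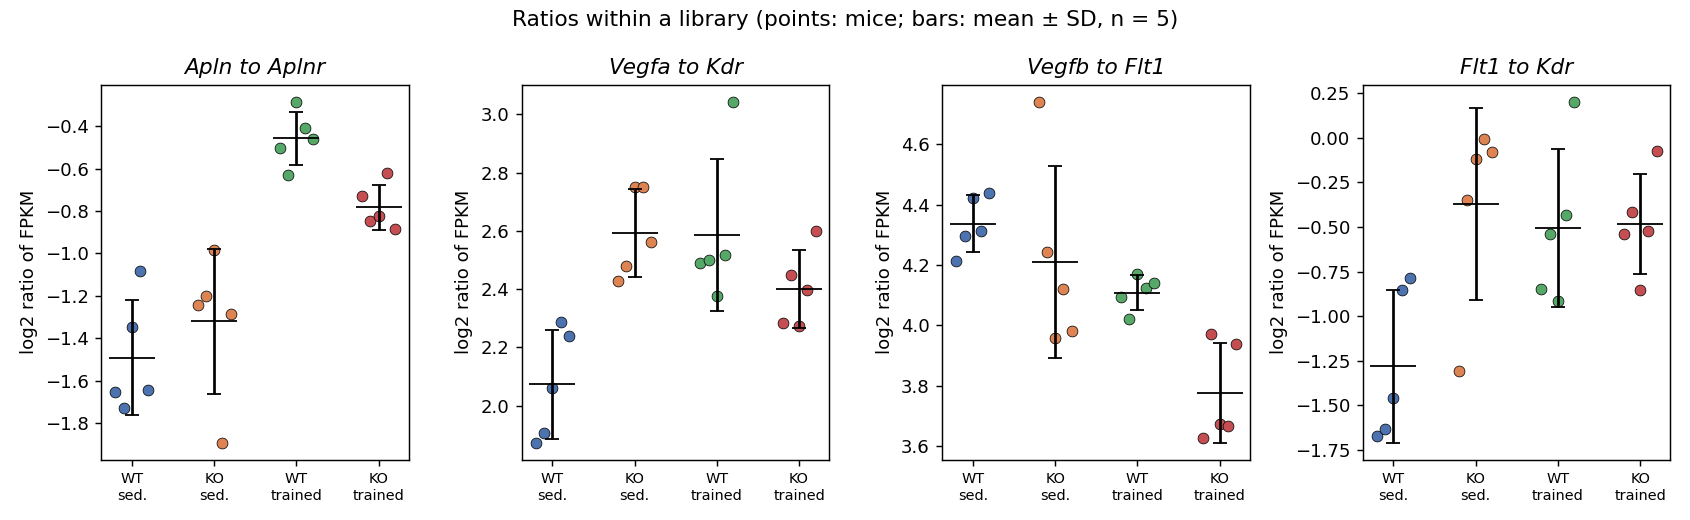
Log2 ratio of FPKM within a library (y axis) for 4 pairs of genes in the 4 groups (x axis), 1 point per mouse, with the mean and SD of 5 mice as bars. For Apln to Aplnr the trained hearts lie between -0.89 and -0.29, above all sedentary hearts, which lie between -1.89 and -0.98.

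Set against the 13 endothelial markers of the same library, the members fell into different patterns. The mean log2 level of these markers was 4.36 in sedentary wild-type, 4.17 in sedentary labelled knockout, 4.60 in trained wild-type and 4.19 in trained labelled knockout hearts, lower without overlap in labelled knockout hearts in the trained mice alone among the 4 comparisons. After subtraction, Kdr still differed by -0.80, Aplnr by -0.89 and Apln by -0.67 between the sedentary genotypes, with overlap, and Flt1 by 0.09 and Tie1 by -0.06. With the marker mean as a covariate limma called 6 of 10 as lower between the sedentary genotypes, Kdr, Aplnr, Apln, Vegfa, Tek and Vegfb, with Vegfc at -0.36 no longer called (adjusted p = 0.0645). In that fit 15.6% of all genes passed as lower and 29.9% in either direction, more than in the fit without the covariate. Between the trained genotypes the subtracted differences of Kdr and Flt1 were -0.04 and -0.01, those of Vegfb and Tie1 were -0.36 and -0.23 and lower without overlap, and that of Vegfc was 0.36 and higher without overlap. The marker mean itself differed by -0.41 there, and Vegfc as measured by -0.05 with overlap. The positive value of Vegfc thus comes from the reference and is not a rise. The share of all genes without overlap after subtraction was not computed. With training in wild-type hearts the subtracted differences of Aplnr and Kdr were -1.48 and -0.79, larger than as measured, and the marker mean was 0.24 higher in the trained hearts. With training in labelled knockout hearts the marker mean differed by 0.01, so subtraction left the differences nearly as measured, with Vegfb at -0.58 and Tie1 at -0.26, both lower without overlap.

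**Figure D5:**
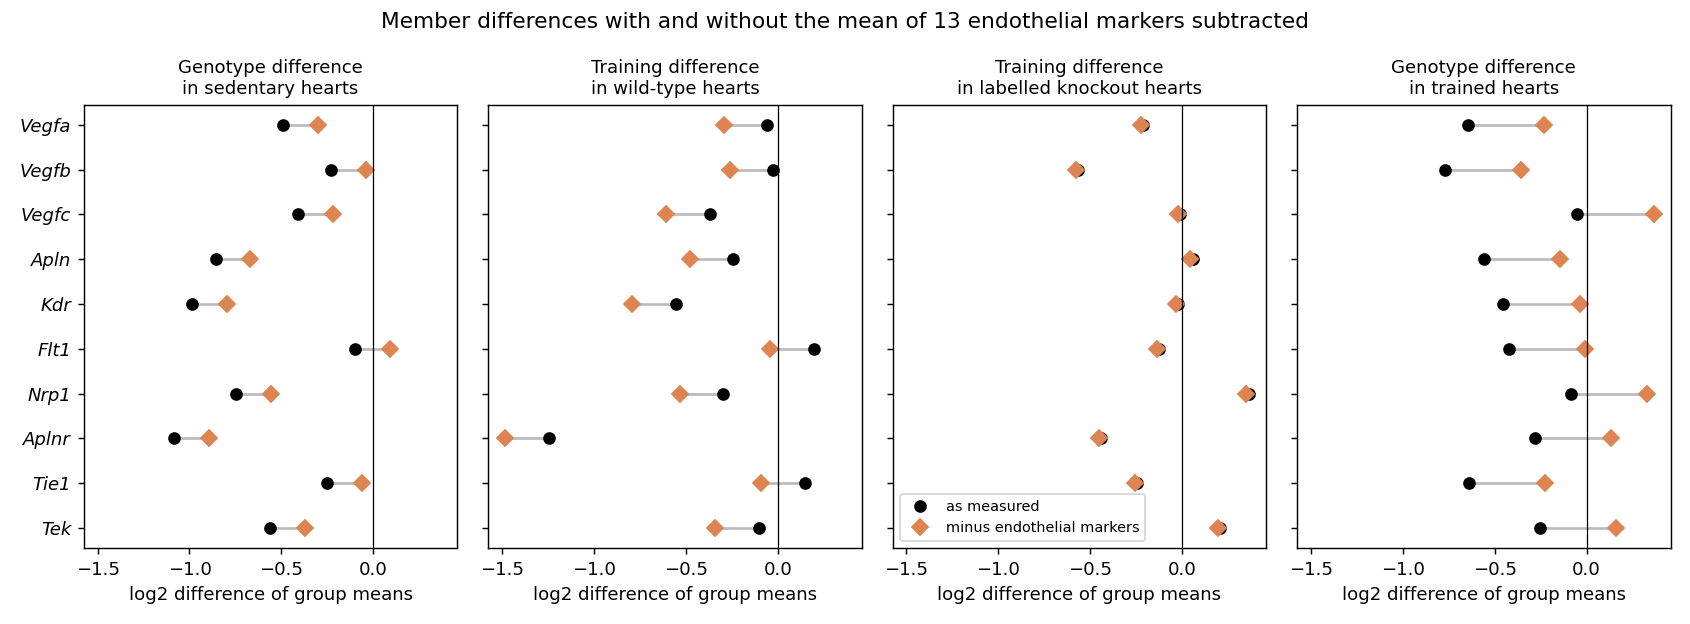
Log2 difference of group means (x axis) of the 10 genes (y axis) as measured (circles) and after subtraction of the mean log2 level of 13 endothelial markers in each library (diamonds), in 4 comparisons. Between the trained genotypes subtraction brings Kdr and Flt1 to -0.04 and -0.01, whereas between the sedentary genotypes Kdr and Aplnr stay at -0.80 and -0.89.

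Between mice of a group, 7 members varied together, Vegfa, Vegfc, Kdr, Apln, Aplnr, Tek and Nrp1, and the other 3 did not follow them. Correlations of log2 levels after subtraction of the group means, over the 20 libraries, ran from 0.39 to 0.93 in the 21 pairs of the 7, and from -0.50 to 0.15 in the 21 pairs of one of these with Vegfb, Flt1 or Tie1, with Vegfa and Kdr at the upper end of the first range and Vegfb and Tek at the lower end of the second. The 7 were grouped after these values were seen. Vegfb, Flt1 and Tie1 correlated with each other at 0.29 to 0.77. Replicate 1 held the highest value of its group for these 7 members in sedentary wild-type and in sedentary labelled knockout hearts, and both are libraries with Arntl above 2 FPKM. Sedentary wild-type replicate 4, also above 2 FPKM, was the lowest of its group in 5 of these members, Vegfc, Apln, Aplnr, Tek and Nrp1. In sedentary labelled knockout hearts replicate 1 was also the lowest in Flt1 and Tie1. Among trained hearts, wild-type replicate 5 was lowest in 9 of 10 members, all but Aplnr, and labelled knockout replicate 5 was lowest in 6, both libraries with Myl7 above 1000 FPKM. Genes whose log2 levels ran most alike over the 20 libraries, among 11762 genes with a mean of at least 1 FPKM, included Ets1 (r = 0.95), Tnfaip2 (0.95) and Ppp1r16b (0.94) for Kdr, Ppp1r16b (0.94) and Pcdh12 (0.92) for Vegfa, and Ppp1r16b (0.93), Tnfaip2 (0.92) and Ceacam1 (0.92) for Apln. For Aplnr they were Apol10b (0.94), Ets1 (0.92) and Ets2 (0.92), and for Tie1 Gpr137 (0.96), Znrf1 (0.95) and Pde4c (0.93). Such lists were made for these 5 members alone. Those of Kdr, Vegfa and Apln share Ppp1r16b, while the genes named for Tie1 are in none of the other lists. Flt1 and Vegfb, which had no list, correlated with Tie1 at 0.86 and 0.82 over the 20 libraries. These are Pearson correlations given as a description without a test, over libraries that share group, depth and the Arntl and Myl7 sets.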

How the data were processed

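RNA from pieces of heart was measured in 20 libraries, 5 mice per group. The deposited values are FPKM made by the authors; the tools named in the submitters' processing notes are DESeq2 1.20.0, HISAT2 2.0.5 and featureCounts 1.5.0-p3, with the build mm10. Nothing says whether replicates share litters or cages, so p-values measure the spread between these mice. Times exon length (GENCODE M21), FPKM gave whole reads within 0.01 for 96.6% of genes, 14162272 to 30431339 reads per library, so deposited values recover counts; their scale factors tracked median-ratio size factors (ratio 0.997 to 1.003).

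Log2(FPKM + 0.5) of genes with a mean of at least 0.5 FPKM (13723 of 25851) was fitted with limma 3.58.1 (R 4.3.3): 4 group means, 16 residual degrees of freedom, trended empirical Bayes, two-sided, Benjamini-Hochberg adjustment over all genes per comparison, threshold 0.05. Fold changes are on that scale, which understates low genes. The fit was tested on simulated data. Tables and figures used Python 3.11.15, pandas 2.3.3, numpy 2.4.6 and matplotlib 3.10.9. SDs are over mice and SEs from limma.

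The members and lists were chosen with earlier results of these data known. Named genes were all 10 members, up to 4 called genes per list and comparison in order of adjusted p, the 3 genes most correlated with each of 5 members (1 of them is not reported here), and Ppargc1a. Alternatives were other pseudocounts (0.1, 1), no filter, a mean of at least 2 FPKM, TPM, median-ratio scaling, groups fitted alone, the replicate block, an endothelial covariate and leaving out each mouse. Chosen after seeing the data were fits without the libraries with Arntl above 2 or Myl7 above 1000 FPKM, these genes as covariates, and voom on the recovered reads, which tested 13055 genes and called 837 higher and 762 lower between the sedentary genotypes and 1675 and 2033 between the trained ones. Tagln, Ccl21a, Reln, Angpt4 and Apela were not tested.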

Additional observations from a re-analysis of the deposited data

Results flagged for a closer look

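In 4 of 40 sets of 5 mice (10 members in 4 groups) 1 mouse stood apart from the others, its gap to the nearest mouse exceeding 0.71 of the group's range; chance gives about 1 in 20. Vegfc was at 3.35 FPKM in trained labelled knockout replicate 4, above its group. Tie1 was at 21.3 FPKM in sedentary labelled knockout replicate 1, below its group, and Nrp1 in the same mouse at 10.4 FPKM, above its group. Tek was at 8.70 FPKM in trained wild-type replicate 5, below its group. The difference between the Vegfb training differences, labelled knockout minus wild-type, was -0.54 on the log2 scale and passed as an interaction (limma adjusted p = 0.00619).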

How the results depend on the processing

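Across 14 called member values, all 345 alternative values kept their direction and 291 stayed past the threshold; 54 did not. Of 945 alternative values for the 36 others, 53 had the other sign and 20 passed. Comparisons share groups, and the cause of each move was not tested.

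The number of members called (7 sedentary genotype, 1 training in wild-type, 1 training in labelled knockout, 4 trained genotype, 1 interaction) became 3, 1, 2, 2 and 0 with TPM. Of all genes, 9.33%, 1.55%, 31.0%, 39.1% and 1.63% were called with TPM. Without the Arntl-high libraries 1 sedentary wild-type heart is left, assumed to vary like the other groups, so no counts are given here for that fit. With log2 Arntl as a covariate the sedentary and wild-type training counts were 1 and 0, where 4.33% and 0.532% of all genes were called. The endothelial covariate gave 0 with training in wild-type, 2 with training in labelled knockout and 2 between trained genotypes. In that fit 0.313%, 32.0% and 20.6% of all genes were called. Wild-type training gave 0 with groups fitted alone and 0 without the Myl7-high libraries. Leaving out 1 mouse gave 3 to 8, 1 to 2, 1 to 3, 4 to 6 and 1 to 3. Of all genes, 8.39% to 20.4%, 0.925% to 16.8%, 22.7% to 28.9%, 22.8% to 28.1% and 3.5% to 12.4% were called there.

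The replicate block gave 8, 2, 1, 6 and 1 calls, adding Nrp1 (sedentary), Kdr (wild-type training) and Kdr and Apln (trained genotype) by limma. Calls over all genes rose as well, to 18.0%, 12.1%, 31.2%, 30.8% and 9.51%, from 13.3%, 5.47%, 28.4%, 27.9% and 7.32% in the main fit. Same-number correlations ran from -0.28 to 0.48, and at most 2 of 5 mice correlated best with their own number. With 5 mice a group this check does not settle whether the numbers pair the mice, which the labels do not say.

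Uncalled values changed sign as follows, on the log2 scale. With TPM, wild-type training was 0.022 for Vegfa and 0.055 for Vegfb; labelled knockout training was 0.056 for Vegfa, 0.24 for Vegfc, 0.24 for Kdr, 0.14 for Flt1 and 0.022 for Tie1; the trained genotype difference was 0.22 for Vegfc, 0.028 for Tek and 0.19 for Nrp1; and the Vegfa interaction was 0.034. With the endothelial covariate Flt1 was 0.070 (sedentary) and -0.015 (wild-type training), Tie1 -0.098 (wild-type training) and Vegfc 0.063 (trained). Without the Myl7-high libraries wild-type training was 0.14 for Vegfa, 0.026 for Vegfb and 0.0995 for Apln, and labelled knockout training 0.042 for Vegfc and 0.22 for Kdr. Without the Arntl-high libraries wild-type training was 0.20 for Vegfa, -0.0022 for Tie1, 0.22 for Tek and 0.19 for Nrp1, and labelled knockout training 0.026 for Vegfc and 0.077 for Kdr. With log2 Arntl, wild-type training was 0.20 for Vegfa, 0.051 for Apln, 0.11 for Tek and 0.23 for Nrp1. With log2 Myl7, Vegfa was 0.052 (wild-type training), Vegfc 0.030 and Kdr 0.15 (labelled knockout training).

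Leaving out 1 mouse, sedentary Flt1 ran from -0.16 to 0.026; wild-type training of Vegfa from -0.13 to 0.040, Vegfb from -0.061 to 0.018 and Tek from -0.19 to 0.00096; labelled knockout training of Vegfc from -0.089 to 0.026, Kdr from -0.13 to 0.10 and Apln from -0.063 to 0.19; and the trained difference of Vegfc from -0.13 to 0.0012 and Nrp1 from -0.27 to 0.078. Of the ratios and marker-relative values 1 moved, Tie1 between sedentary genotypes, to 0.0495 against Pecam1, Cdh5 and Egfl7. Vegfc, at 82 to 223 reads a library, is the member most limited by depth.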
